A study of Mus musculus with 2 samples.

Results

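The 10 genes described here encode the RUNX transcription factors Runx1, Runx2 and Runx3, their partner protein Cbfb, and the ETS transcription factors Ets1, Ets2, Elk3, Etv4, Etv5 and Etv6. They were chosen by name out of 22208 protein-coding gene symbols on the chromosomes that held peaks, and the peaks counted for each gene are the DNaseI-seq peaks that overlapped its annotated body or lay within 50 kb of it on mouse assembly mm9. By this rule 34 of 17784 peaks called in vehicle-treated cells and 51 of 22600 peaks called after TGFβ belonged to the set, and no peak belonged to 2 of the genes. The cells were NMuMG, an epithelial line derived from normal mouse mammary gland. They were held for 6 h in medium lacking serum and insulin and then treated for 2 h with 5 ng/ml TGFβ1 or, as vehicle control, with the solution it was dissolved in. DNaseI-seq finds open chromatin by digesting nuclei briefly with DNaseI and sequencing the short fragments that are released. Each of the 2 samples came as 1 peak list, and the series text speaks of duplicates whose reads the data listing gives as merged, so the spread between cultures was not measured and no test between the conditions could be made.

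RUNX proteins bind DNA through the Runt domain, and CBFβ, which does not itself bind DNA, binds this domain and strengthens its hold on DNA. RUNX proteins can also form complexes with the SMAD proteins that carry the TGFβ signal into the nucleus. ETS proteins bind sites built around a GGAA core through the ETS domain, and several of them are phosphorylated by the MAP kinases that act downstream of growth factors and Ras. RUNX and ETS proteins often bind side by side with AP-1, the dimer of Fos and Jun proteins.

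In the text below a peak is called shared when it overlapped a peak of the other list by at least 1 bp, and vehicle-only or TGFβ 2 h-only otherwise. These words refer to the lists alone, since a site that was not called may still have had DNaseI signal. A promoter peak touched the 1000 bp on either side of an annotated transcript start, and the other peaks are called distal. Each peak carries the whole-number score deposited by the authors, between 540 and a ceiling of 1000, and this score was used only to rank peaks within 1 list. Where scores from both lists are printed for a site, they do not measure a change in signal.

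The sequences below are the 200 bases around the midpoints of unshared distal peaks of these genes. The first 5 are the TGFβ 2 h-only peaks at the ceiling score, the next 3 are TGFβ 2 h-only peaks below the ceiling that held a searched motif and lay nearest to a start of their gene, and the last pair are vehicle-only peaks chosen in the same order, the one at the ceiling and the one holding a motif nearest to a start. Each is the forward strand of mm9 (NCBIM37), 5′ to 3′, and capitals mark exact matches, on either strand, to AP-1 (TGAGTCA or TGACTCA), RUNX (TGTGGT), ETS (CCGGAAG or CAGGAAG), TEAD (GGAATG) or SMAD (GTCTAGAC) letters.
Runx1 TGFβ 2 h-only peak, chr16:92609784-92609983: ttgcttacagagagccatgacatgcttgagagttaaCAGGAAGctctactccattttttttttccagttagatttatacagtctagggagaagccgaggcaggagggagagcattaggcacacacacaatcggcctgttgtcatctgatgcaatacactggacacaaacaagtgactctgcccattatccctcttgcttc
Runx1 TGFβ 2 h-only peak, chr16:92610960-92611159: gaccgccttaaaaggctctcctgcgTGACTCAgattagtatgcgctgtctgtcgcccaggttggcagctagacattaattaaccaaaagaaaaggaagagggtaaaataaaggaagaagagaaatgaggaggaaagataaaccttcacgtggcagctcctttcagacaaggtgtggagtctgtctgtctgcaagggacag
Runx1 TGFβ 2 h-only peak, chr16:92778380-92778579: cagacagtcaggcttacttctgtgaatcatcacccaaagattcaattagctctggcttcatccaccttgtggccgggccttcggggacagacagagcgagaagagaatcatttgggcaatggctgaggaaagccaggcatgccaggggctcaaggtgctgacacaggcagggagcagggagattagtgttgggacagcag
Elk3 TGFβ 2 h-only peak, chr10:92734838-92735037: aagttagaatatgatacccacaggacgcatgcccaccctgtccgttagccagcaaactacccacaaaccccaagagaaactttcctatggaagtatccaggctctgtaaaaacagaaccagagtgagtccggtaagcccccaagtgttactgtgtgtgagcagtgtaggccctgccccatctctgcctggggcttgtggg
Elk3 TGFβ 2 h-only peak, chr10:92820012-92820211: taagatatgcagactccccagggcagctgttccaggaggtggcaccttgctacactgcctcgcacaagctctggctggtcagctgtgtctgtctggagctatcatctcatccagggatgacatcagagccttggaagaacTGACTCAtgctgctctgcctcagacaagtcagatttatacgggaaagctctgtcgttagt
Runx2 TGFβ 2 h-only peak, chr17:44875136-44875335: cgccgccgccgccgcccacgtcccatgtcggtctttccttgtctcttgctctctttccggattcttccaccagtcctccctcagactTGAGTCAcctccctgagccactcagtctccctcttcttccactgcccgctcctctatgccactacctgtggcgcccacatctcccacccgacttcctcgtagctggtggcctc
Runx2 TGFβ 2 h-only peak, chr17:44864772-44864971: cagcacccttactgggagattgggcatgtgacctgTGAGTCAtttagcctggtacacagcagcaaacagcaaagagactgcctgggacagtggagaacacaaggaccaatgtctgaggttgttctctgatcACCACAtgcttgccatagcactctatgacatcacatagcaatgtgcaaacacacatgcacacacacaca
Ets2 TGFβ 2 h-only peak, chr16:95930336-95930535: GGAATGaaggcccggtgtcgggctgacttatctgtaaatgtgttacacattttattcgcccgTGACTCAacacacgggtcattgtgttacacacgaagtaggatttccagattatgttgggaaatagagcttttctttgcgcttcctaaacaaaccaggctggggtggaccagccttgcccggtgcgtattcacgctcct
Ets2 vehicle-only peak, chr16:95880442-95880641: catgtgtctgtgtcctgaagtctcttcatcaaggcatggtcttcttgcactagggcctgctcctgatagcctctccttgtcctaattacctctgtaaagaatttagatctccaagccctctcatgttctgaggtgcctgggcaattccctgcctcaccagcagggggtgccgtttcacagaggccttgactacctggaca
Etv4 vehicle-only peak, chr11:101638200-101638399: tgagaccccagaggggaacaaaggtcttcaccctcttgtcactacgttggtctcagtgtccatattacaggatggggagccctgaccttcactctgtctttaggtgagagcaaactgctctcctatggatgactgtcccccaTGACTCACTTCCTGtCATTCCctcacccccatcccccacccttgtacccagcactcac

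Among the 5 ceiling peaks, the AP-1 letters stood at position 26 of the second Runx1 window and at position 141 of the Elk3 window on the upstream side of that gene, and ETS letters stood at position 37 of the first Runx1 window. The third Runx1 window and the intronic Elk3 window held none of the letters searched. The Runx2 window at chr17:44864772 held AP-1 letters at position 36 and RUNX letters at position 132, which as printed read ACCACA because the match lies on the reverse strand. In the vehicle-only Etv4 window, chosen because it holds letters, AP-1, ETS and TEAD letters began at positions 143, 150 and 158. It was the only one of the 5 distal vehicle-only windows of the set with AP-1 letters (20%, against 7.64% of all such peaks), and 3 of the 5 held none of the letters searched (60%, against 57.8%).

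More peaks were called around the RUNX and ETS genes after TGFβ than with vehicle, and the additional peaks were distal. Of the 51 TGFβ 2 h peaks 25 (49%, exact 95% interval 34.8 to 63.4%) were TGFβ 2 h-only, where 33.7% of all TGFβ 2 h peaks were. Of the 34 vehicle peaks 7 (20.6%, 8.7 to 37.9%) were vehicle-only, close to the 17.6% of all vehicle peaks. These intervals cover the counting of peaks only and hold no variation between cultures, and several peaks share 1 gene. All 25 TGFβ 2 h-only peaks were distal, out of 36 distal TGFβ 2 h peaks (69.4%, 51.9 to 83.7%), and the corresponding share of all distal TGFβ 2 h peaks, 55.3%, lay inside that interval. None of the 15 promoter TGFβ 2 h peaks was TGFβ 2 h-only (upper end of the interval 21.8%), where 10.1% of all promoter TGFβ 2 h peaks were. With vehicle, 5 of 17 distal peaks (29.4%, beside 31.6% of all distal vehicle peaks) and 2 of 17 promoter peaks (11.8%, beside 7.29% of all promoter vehicle peaks) were vehicle-only. Promoter peaks accordingly made up 50% of the vehicle peaks and 29.4% of the TGFβ 2 h peaks of these genes, against 57.6% and 47.9% of all peaks in the lists.

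**Figure D1:**
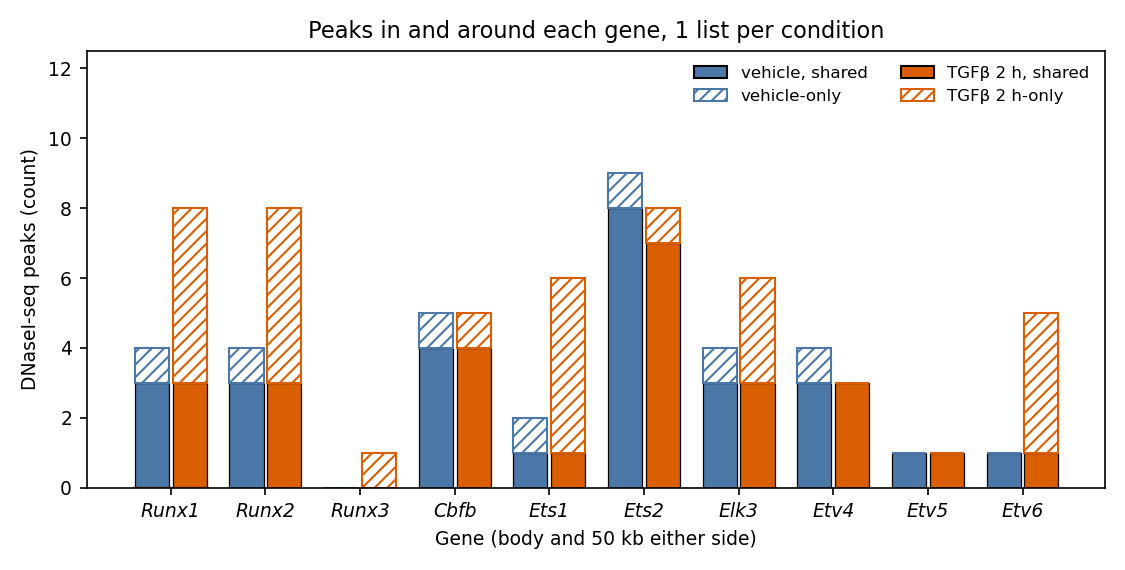
Number of DNaseI-seq peaks (vertical axis, count) in and within 50 kb of each gene, blue for the vehicle list and orange for the TGFβ 2 h list. Solid parts are shared peaks and hatched parts are peaks called in 1 list only. The hatched orange parts are tallest at Runx1, Runx2 and Ets1 with 5 peaks each and at Etv6 with 4, while Etv4 and Etv5 have none.

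The additional peaks were not spread evenly over the 10 genes. Runx1, Runx2, Ets1 and Etv6 together held 19 of the 25 TGFβ 2 h-only peaks, Elk3 held 3, and Runx3, Cbfb and Ets2 held 1 each. Etv4 and Etv5 had none. A count of at least 4 TGFβ 2 h-only peaks, reached by 4 of the 10 genes, was found in 2.45% of all protein-coding genes. These 4 genes are also the longest of the set, and among protein-coding genes whose window spanned at least 200 kb, as theirs did, 8.49% reached this count. In all, 8 of the 10 genes had a TGFβ 2 h-only peak, where 40.6% of protein-coding genes did, and 7 had a vehicle-only peak, where 26% did. The median window was 161 kb for the set and 116 kb for all protein-coding genes. The comparison genes were not matched for open chromatin either: 45.8% of them had a vehicle peak at an own start, against 9 of the 10 genes.

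More peaks were called after TGFβ than with vehicle at Runx1 and Runx2 (8 against 4 at each), Runx3 (1 against 0), Ets1 (6 against 2), Elk3 (6 against 4) and Etv6 (5 against 1). The counts were equal at Cbfb (5 in each list) and Etv5 (1 in each list), and lower after TGFβ at Ets2 (8 against 9) and Etv4 (3 against 4). More peaks after TGFβ at 6 of 10 genes compares with 33.7% of all protein-coding genes, and with 46.1% of those with windows of at least 200 kb. Fewer peaks at 2 of 10 compares with 13.2%.

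When the TGFβ 2 h list was cut by score to the length of the vehicle list, the genes held 41 TGFβ 2 h peaks with 17 unshared (41.5%, beside 22.8% of the cut list) and 9 of 34 unshared vehicle peaks (26.5%, beside 23.9% of all vehicle peaks). Among distal peaks alone, 17 of 28 TGFβ 2 h peaks were unshared (60.7%, beside 44.3% of the cut list). For vehicle, 5 of 17 distal peaks were unshared (29.4%, beside 42.2% of all distal vehicle peaks). In that comparison Etv6 had 4 TGFβ 2 h-only peaks, Runx1, Ets1 and Elk3 had 3 each, Runx2 had 2, and Runx3 and Ets2 had 1 each. By the study's own listing the vehicle library had more mapped reads than the TGFβ 2 h library, and the part of depth in these counts was not tested.

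**Figure D2:**
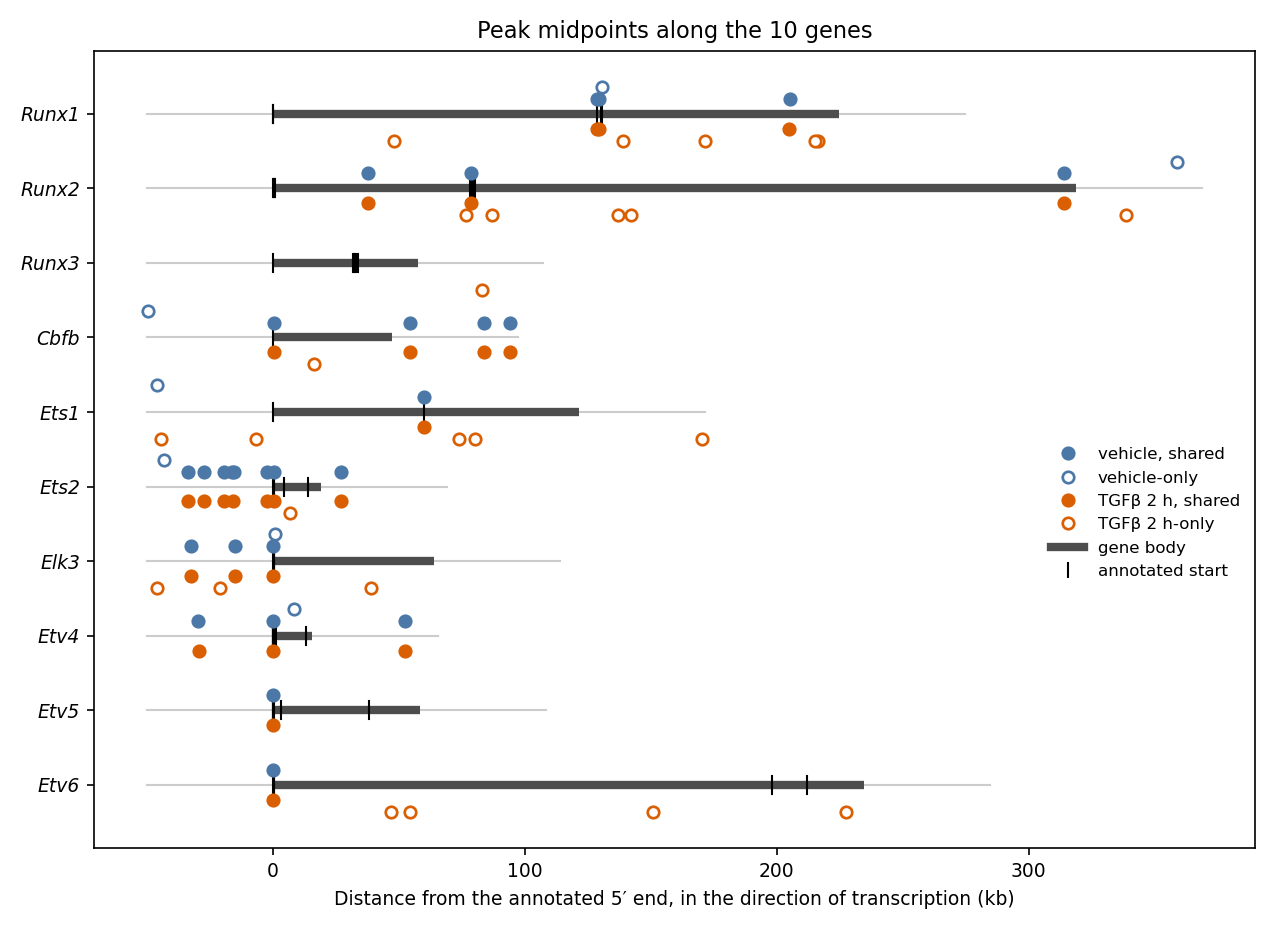
Midpoints of all peaks of the 10 genes, by distance in kb from the annotated 5′ end of the gene along the direction of transcription. Thick bars are gene bodies, thin lines the 50 kb on either side, and black ticks annotated transcript starts. Vehicle peaks are drawn in blue above each gene and TGFβ 2 h peaks in orange below, filled when shared and open when called in 1 list only. The open orange circles lie within the bodies of Runx1, Runx2 and Etv6 at all but 1 of their 14 positions.

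The TGFβ 2 h-only peaks lay mostly in introns of the genes themselves. The midpoints of 18 of the 25 (72%, exact interval 50.6 to 87.9%) were in an intron of the gene, 4 were upstream and 3 downstream. The gene bodies made up 53.7% of the bases of the 10 windows, a share that lay inside this interval. Of all distal TGFβ 2 h-only peaks 47.5% had their midpoint in a protein-coding gene body. Of the 11 distal shared TGFβ 2 h peaks of the set 2 were in introns (18.2%, 2.28 to 51.8%), and the 41.8% of all distal shared TGFβ 2 h peaks in a protein-coding gene body lay inside that interval. Another 8 of the 11 were upstream, most of them at Ets2, whose body takes up only 19 kb of its 119 kb window. For all 25 TGFβ 2 h-only peaks the nearest protein-coding start was one of the gene's own, as it was for all 11 distal shared TGFβ 2 h peaks. The distance of the 25 to it ran from 1.64 to 258 kb with a median of 44.3 kb, and only 2 lay under 5 kb from an own start. Their widths ran from 261 to 952 bp, with a median of 542 bp.

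A start is called covered when a peak touched the 1000 bp on either side of it. Starts of these genes were covered by a peak in both lists at 9 of the 10 genes, Runx3 being the exception. Over all protein-coding genes 45.8% had a vehicle peak and 46.4% a TGFβ 2 h peak at an own start. At Runx1, Runx2 and Ets1 the covered starts were internal ones. The annotated 5′ ends of these 3 genes lie 129 kb, 78.1 kb and 59.8 kb upstream of the nearest covered start, and the starts there had no peak in either list.

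Runx1, known for its role in blood formation and also expressed in mammary epithelium, had 4 vehicle peaks and 8 TGFβ 2 h peaks in a window of 325 kb. All starts of Runx1 with a peak were in its internal group of 3 annotated starts. There the vehicle list held peaks at chr16:92695577-92696168 (score 565), chr16:92696871-92697320 (score 970) and chr16:92697424-92698106 (score 839), and the TGFβ 2 h list held chr16:92696850-92697309 (score 1000) and chr16:92697474-92698202 (score 986). The last 2 vehicle peaks paired one-to-one with the TGFβ 2 h peaks and had nearly their widths, at ratios of 1.02 and 1.07. The first vehicle peak was vehicle-only, with its midpoint in a coding exon 22 bp from a start, and the nearest TGFβ 2 h peak began 681 bp away.

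All 5 TGFβ 2 h-only peaks of Runx1 were intronic, and 3 of them were at the ceiling score. An adjacent pair at chr16:92609535-92610233 and chr16:92610771-92611349 lay 86 and 84.8 kb downstream of the nearest own start, toward the end of the gene. The third, chr16:92778114-92778845, lay between the upstream and the internal starts, 47.8 kb downstream of the former. The nearest vehicle peaks were 10494, 9378 and 80007 bp away, so none of the 3 adjoined a vehicle peak. The other pair had scores of 623 and 545, the latter near the lowest score of the list. A shared intronic peak 74.6 kb downstream of the internal starts was scored 871 with vehicle and 1000 after TGFβ.

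Runx2, the principal regulator of bone formation, also had 4 vehicle and 8 TGFβ 2 h peaks, in a window of 419 kb that joined 2 annotation entries of this symbol. Of its 6 internal starts, 5 were covered with vehicle, by chr17:44872754-44873503 (score 873), and all 6 after TGFβ, by chr17:44872524-44873641 (score 709). This peak was 750 bp wide with vehicle and 1118 bp after TGFβ, 1 of 8 pairs of the set that were wider after TGFβ. A further shared promoter peak inside Runx2 sat 3 bp (vehicle) and 7 bp (TGFβ 2 h) from a start of Supt3h, a gene of a transcription coactivator complex that overlaps Runx2.

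The TGFβ 2 h-only peaks of Runx2 were all below the ceiling. The highest, chr17:44874937-44875535 (score 850), lay in an intron 1.64 kb upstream of the internal starts, and 1433 bp from the vehicle peak there. It was the TGFβ 2 h-only peak closest to a start in the whole set. Next came chr17:44864740-44865003 (score 676), 6.77 kb downstream in an intron, whose window holds both AP-1 and RUNX letters, and chr17:44612974-44613626 (score 630) beyond the end of the gene. The vehicle-only peak of Runx2, chr17:44592545-44593085 (score 907), also lay beyond the end of the gene, and its nearest protein-coding start was that of Clic5, 267 kb away.

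Runx3, which acts in T cell, neuronal and gastric epithelial development, was the gene with the fewest peaks. None of its 6 annotated starts was covered in either list and no vehicle peak fell in its window. Its single TGFβ 2 h peak, chr4:134759256-134760044 (score 658), lay downstream of the gene, 49.3 kb from its nearest start.

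Cbfb, which encodes the shared partner of the RUNX proteins, had 5 peaks in each list, and 4 in each list were shared. Its start was covered by chr8:107694025-107695716 with vehicle and chr8:107694229-107695260 after TGFβ, both at the ceiling, and the peak was 1692 bp wide with vehicle and 1032 bp after TGFβ. The other 3 shared peaks lay at the starts of the downstream genes D230025D16Rik, B3gnt9-ps and Fbxl8. The TGFβ 2 h-only peak chr8:107710437-107710873 (score 635) was in an intron of Cbfb, 16.1 kb from its start. The vehicle-only peak chr8:107644593-107645222 (score 607) lay upstream and nearer to a start of Ces4a (10.8 kb) than to that of Cbfb (49.7 kb).

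Ets1, an ETS factor that responds to Ras and MAP kinase signals and partners with RUNX1 on DNA, had 2 vehicle and 6 TGFβ 2 h peaks. Its internal start was covered in both lists at the ceiling score, by chr9:32503063-32504043 with vehicle and chr9:32503212-32503819 after TGFβ, and the width was 981 bp and 608 bp. No other peak of Ets1 was shared. The 3 highest TGFβ 2 h-only peaks were chr9:32523671-32524216 (score 945) in an intron 20.3 kb downstream of the internal start, chr9:32399327-32399599 (score 833) far upstream of the gene, and chr9:32436529-32437480 (score 697) 6.8 kb upstream of its 5′ end. The vehicle-only peak, chr9:32397580-32397764 (score 637), was 185 bp wide and lay 1562 bp from the second of these.

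Ets2, the close relative of Ets1 that also responds to Ras and MAP kinases, had the most vehicle peaks of the set and nearly the same peaks in both lists. It had 9 vehicle peaks, 8 of them shared, and 8 TGFβ 2 h peaks, 7 of them shared. The peak at its starts was at the ceiling in both, chr16:95923440-95924628 with vehicle and chr16:95923508-95924344 after TGFβ, and was 1189 and 837 bp wide. Between 2.28 and 33.7 kb upstream of its start lay 5 shared TGFβ 2 h peaks. One of these, 1015 bp wide, overlapped 2 vehicle peaks of 372 and 727 bp, the only such case in the set. The vehicle-only peak, chr16:95880175-95880908, was at the ceiling and lay 43.1 kb upstream, 8687 bp from the nearest TGFβ 2 h peak. The TGFβ 2 h-only peak, chr16:95930245-95930626 (score 670), was in an intron 2.49 kb downstream of an own start, and its window holds TEAD and AP-1 letters.

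Elk3, a ternary complex factor that acts with serum response factor and can repress transcription, had 4 vehicle and 6 TGFβ 2 h peaks. Its start was the one place in the ETS genes where a promoter peak was vehicle-only. With vehicle it carried chr10:92773675-92774193 (score 1000) and, in an intron, chr10:92772989-92773368 (score 700). After TGFβ it carried chr10:92773596-92774034 (score 581), which overlapped the former and began 227 bp from the latter. The vehicle-only peaks at the starts of Elk3 and Runx1 are no longer unshared, leaving 0 at each gene, when peaks up to 1000 bp apart count as shared or are joined. Of the 3 TGFβ 2 h-only peaks, chr10:92734667-92735208 in an intron 38.6 kb downstream of the start and chr10:92819845-92820379 at 46.2 kb upstream were at the ceiling, and chr10:92794936-92795384 (score 689) lay 21.3 kb upstream. The remaining TGFβ 2 h peaks were shared and lay 15 and 32.4 kb upstream.

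Etv4 and Etv5, members of the PEA3 group of ETS factors that act downstream of FGF signalling, had no TGFβ 2 h-only peak. Etv4 carried peaks at its starts in both lists, chr11:101646285-101646834 (score 830) with vehicle and chr11:101646296-101646846 (score 627) after TGFβ, of 550 and 551 bp. Its vehicle-only peak, chr11:101638102-101638497, was in an intron and had a score of 543, near the lowest of the list. Its other shared peaks were at a start of Dhx8 and 29.8 kb upstream of Etv4. Etv5 had a single peak in each list, at its start and at the ceiling, chr16:22439127-22440264 with vehicle and chr16:22439359-22440218 after TGFβ.

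Etv6, an ETS repressor, had 1 vehicle peak, which covered its 5′ starts (chr6:133984904-133986291), and the matching TGFβ 2 h peak (chr6:133984868-133986098) was also at the ceiling. The other 4 TGFβ 2 h peaks were TGFβ 2 h-only and lay in its introns. The highest were chr6:134136396-134136861 (score 955), chr6:134039736-134040608 (score 883) and chr6:134032361-134032982 (score 865), and the lowest of the 4 was scored 827. They lay between 46069 and 226649 bp from the only vehicle peak. In Etv6, as in Elk3, every unshared TGFβ 2 h peak scored above the median of 671 of all distal TGFβ 2 h-only peaks.

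**Figure D3:**
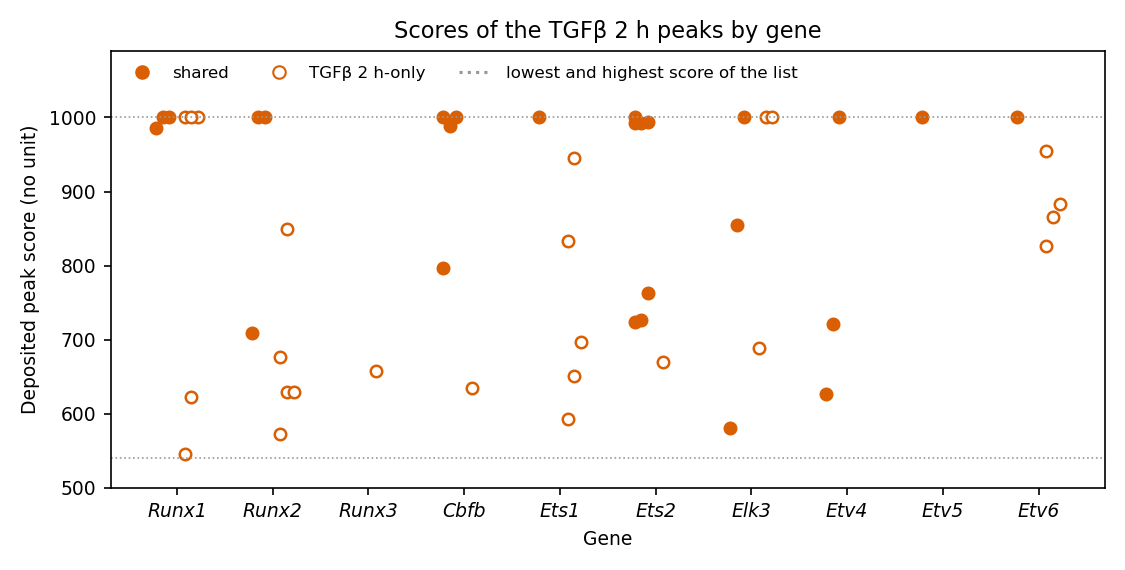
Deposited scores (vertical axis, no unit) of the 51 TGFβ 2 h peaks by gene, filled when shared and open when TGFβ 2 h-only, with small sideways shifts to separate points. Dotted lines mark the lowest (540) and highest (1000) score of the list. Open circles reach the ceiling at Runx1 (3 peaks) and Elk3 (2 peaks), and those of Etv6 lie between 827 and 955.

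Several TGFβ 2 h-only peaks at Runx1 and Elk3 had the highest score of their list. Of all 25, 5 (20%, exact interval 6.83 to 40.7%) were at the ceiling, where 7.9% of all distal TGFβ 2 h-only peaks were. Their median score was 697 against 671 for all distal TGFβ 2 h-only peaks. The shared distal TGFβ 2 h peaks of the set had a median of 993. Among the 7 vehicle-only peaks 1 was at the ceiling, at Ets2, and their median score was 637.

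Shared peaks of these genes were mostly narrower after TGFβ, as were shared peaks in general. In 25 one-to-one pairs the TGFβ 2 h peak was narrower in 17 (68%, 46.5 to 85.1%), where 70.9% of all 13978 pairs were. The median ratio of widths, TGFβ 2 h over vehicle, was 0.887 for the set and 0.906 for all pairs. All 8 pairs at the ceiling of both lists were narrower (exact interval 63.1 to 100%), with ratios from 0.61 at the start of Cbfb to 0.893, and the 75.4% of all 7648 such pairs that were narrower lay inside that interval. The lowest ratio, 0.353, belonged to the peak upstream of Etv4, which was 831 bp wide with vehicle and 293 bp after TGFβ. The highest ratios were 1.54 at B3gnt9-ps beside Cbfb and 1.49 at the internal starts of Runx2. These 3 pairs, and the shared distal peaks, lower-scored Runx1 peaks and peaks at starts of other genes described above, were singled out after their values were seen.

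**Figure D4:**
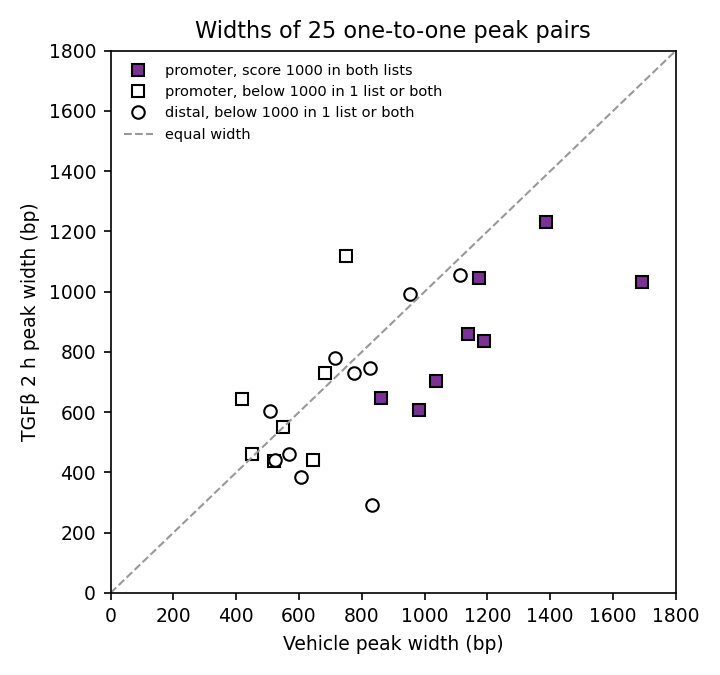
Widths in bp of the 25 peaks of the set that paired one-to-one, vehicle on the horizontal and TGFβ 2 h on the vertical axis. Squares are promoter and circles distal peaks, filled when the score was 1000 in both lists, and the dashed line marks equal width. Points below the line, 17 of 25, are narrower after TGFβ, and all 8 filled points (interval 63.1 to 100%) lie below it, where 75.4% of all pairs at the ceiling of both lists were narrower.

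The letters searched were no more frequent in the central 200 bp of the 25 TGFβ 2 h-only peaks than in all peaks of that class. AP-1 letters were in 6 (24%, exact interval 9.36 to 45.1%), against 27.2% of all 6519 distal TGFβ 2 h-only peaks. RUNX letters were in 4 (16%, against 22%), ETS letters in 3 (12%, against 13.5%) and TEAD letters in 3 (12%, against 14.9%). SMAD letters were in none of the 25 (upper end of the interval 13.7%), against 0.675%. Only the exact letters GTCTAGAC were searched for SMAD, so shorter or variant SMAD sequences were not counted. No searched letters were found in 13 (52%, against 41.7%). Within 400 bp RUNX letters were in 6 (24%, against 37.1%) and ETS letters in 3 (12%, against 25.1%). The median GC content of the 200 bp windows was 50% for the set and 51% for the class.

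Other genes of the pathway were counted by the same rule. The 20 ETS genes outside the set had 53 vehicle and 62 TGFβ 2 h peaks, of which 6 and 14 (22.6% of their TGFβ 2 h peaks) were unshared. Peak numbers were higher after TGFβ at 8 of them, lower at 4 and equal at 8. Fev, Etv1 and Spdef, named after their values were seen, had no peak in either list. The 8 genes of RUNX partners, corepressors of the TLE and CBFA2T families and the kinase Hipk2, had 28 vehicle and 31 TGFβ 2 h peaks, with 6 and 10 (32.3%) unshared, and numbers were higher after TGFβ at 3, lower at 1 and equal at 4. The highest count of TGFβ 2 h-only peaks among these 28 genes was 3, at Elf4, an ETS factor of the ELF group, and 7 genes had 2. Both unshared shares lay below the 33.7% of all TGFβ 2 h peaks. All these shares mix promoter and distal peaks, and the gene lists were not matched for that mix. Over all TGFβ 2 h peaks, 10.1% of promoter and 55.3% of distal peaks were unshared, and the part of the mix in these differences was not tested. The median count of TGFβ 2 h-only peaks per gene was 0 for the other ETS genes, as for all protein-coding genes, 1.5 for the RUNX partners and 2 for the 10 genes of the set. The windows differed in length, with medians of 127, 193 and 161 kb for these 3 lists, and per 100 kb of window the lists held 0.479, 0.624 and 1.16 TGFβ 2 h-only peaks.

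In the outer 10 kb inside the 50 kb limit lay 8 peaks, 3 of them vehicle-only, and in the 10 kb beyond it lay another 8. The outermost inside the limit were the vehicle-only peak upstream of Cbfb, at 49.4 kb from the gene, and the TGFβ 2 h-only peak downstream of Ets1, at 48.4 kb (score 593). The first outside it was a TGFβ 2 h-only peak 50.6 kb upstream of Elk3 (score 836), and the next was a vehicle peak 53.1 kb upstream of Runx3 (score 805), shared with the TGFβ 2 h list.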

How the data were processed

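DNaseI-seq peak lists of 2 NMuMG samples, vehicle and TGFβ 2 h, were grouped by their titles. According to the study's methods, reads were aligned to mm9 and followed the study's ATAC-seq pipeline with DNaseI-seq options not given in the sources used here. For ATAC-seq the authors called peaks with MACS2 (version 2.1.2 per the submitters' processing notes, which also name deepTools) and kept those at an irreproducible discovery rate of 0.05 between replicates. Whether and how this filter was used for DNaseI-seq is not given. The score deposited by the authors for each peak is a whole number without a stated normalization. Scores from both lists are printed for some sites, but their sizes were not compared between lists. The lists hold no read counts, so the number of reads behind each peak is unknown and a site missed in 1 list may lie just below its threshold.

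The lists held 70449 (vehicle) and 68542 (TGFβ 2 h) rows. Rows with the same interval were collapsed to 1 peak, giving 17784 and 22600. The files do not say what a repeated row means. Gene bodies, starts and sequence came from GENCODE M1 and NCBIM37, and all 10 symbols were found. Spi1 was matched through an older symbol. Coordinates are 1-based. Overlap, class, motif and distance were computed with Python 3.11.15, and exact (Clopper-Pearson) 95% binomial intervals with scipy 1.17.1. The counting steps were tested on simulated data.

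The members and gene lists were chosen with earlier results of these data known. Peaks named in the report are those at a gene's own starts, the 3 highest-scoring distal TGFβ 2 h-only peaks of each gene and its 2 highest-scoring distal vehicle-only peaks. Shared distal peaks, peaks at starts of other genes, lower-scored TGFβ 2 h-only peaks and peaks beside the 50 kb limit were described after their values were seen. Alternatives changed the overlap rule, the window, the score threshold, the length of the longer list, the collapsing of rows, the promoter window and the motif window.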

Additional observations from a re-analysis of the deposited data

How the results depend on the processing

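In all 10 alternatives of the count comparison the 10 genes had more peaks, and more unshared peaks, in the TGFβ 2 h list. The sizes did change. With gene bodies alone the vehicle list had 16 peaks, 3 of them unshared, and the TGFβ 2 h list had 31. With 25 kb on either side 3 were vehicle-only. With 100 kb on either side the TGFβ 2 h list had 26 more peaks, against 17 with 50 kb. Peaks at the ceiling score, set against the full other list, numbered 13 for vehicle with 1 unshared and 17 for TGFβ 2 h with 5 unshared (over all ceiling peaks, 155 of 9462 and 591 of 10007), so the differences were 4 peaks and 4 unshared peaks. With the TGFβ 2 h list cut to the length of the vehicle list the differences were 7 peaks and 8 unshared peaks, against 17 and 18. Counting every deposited row gave 130 and 169 rows, 18 and 68 of them unshared, and differences of 39 and 50. Most motif counts in the 25 TGFβ 2 h-only peaks were higher in wider windows: over whole peaks AP-1 letters were in 11, RUNX in 9, ETS in 5 and TEAD in 7, and within 400 bp AP-1 letters were in 10 (40%, against 42.4% of the class) and TEAD in 7 (28%, against 27.6%). Over whole peaks the shares of all peaks of that class were 45.2%, 40.1%, 27.9% and 30%. Of the pairs whose peaks both had the highest score 100% were narrower after TGFβ (8 of 8, interval 63.1 to 100%, beside 75.4% of all such pairs in the lists), against 68% of all pairs of the set. Another 51 values stayed within 1.5 times the reported count or, for percentages, within its exact 95% interval, a margin that passes changes such as 34 to 23 vehicle peaks with 25 kb on either side. Of 200 counts for single genes 140 stayed within 1.5 times and 60 did not. No paired analysis was possible because vehicle and TGFβ 2 h were given as a single list each. With no replicate list, no difference here has an error between cultures.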
